A study of Mus musculus with 2 samples.

Results

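The miR-200 family was described here by its 5 genes, Mir200b, Mir200a and Mir429 in a cluster on chromosome 4 and Mir200c and Mir141 in a cluster on chromosome 6. The genes were chosen by family membership, not by their counts, though with earlier results of these data known. All 5 had a line among the 1973 microRNA (miRNA) genes measured. Small RNA of less than 30 nt was sequenced from whole embryonic kidneys of healthy B6NCrl mice at 15.5 days. The 2 libraries form a single group and are labelled biological replicates: replicate 1 is a pool from 78 embryos and replicate 2 a pool from 62, with male and female embryos mixed in each. No mutant, treatment or other age is part of the design, so the questions the data can answer are how the family stands in this organ and how far its genes differ between pools. The libraries held 7434182 and 5863293 reads on the gene's own strand in miRNA genes, and levels are given as CPM, the count scaled to a library total of 1000000.

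miRNAs are cut from hairpin transcripts and pair with messenger RNAs mainly through the seed, bases 2 to 8 of the mature strand. The miR-200 family is known as a keeper of epithelial identity: it represses Zeb1 and Zeb2, transcription factors that shut off E-cadherin, and these factors in turn repress both miR-200 clusters. In kidney it is known from the epithelium of the ureteric bud, the collecting ducts and the tubules, and in mouse it has been tied to the regulation of the polycystic kidney disease gene Pkd1. Whole kidneys also hold stroma, vessels and nephron progenitors, so a level below is an average over all of these cells. No cells were separated, and whether the family's reads came from epithelium was not tested.

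The family's 3p strands, which are known as its main products, are shown because their seeds divide the genes into groups. The sequences are from RefSeq (GRCm38.p6), which held all 5 genes, written 5′ to 3′ with the seed in capitals.
miR-200b-3p: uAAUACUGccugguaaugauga
miR-200c-3p: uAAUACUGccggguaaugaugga
miR-429-3p: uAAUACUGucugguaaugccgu
miR-200a-3p: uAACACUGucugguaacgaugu
miR-141-3p: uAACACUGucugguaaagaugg
Mir200b, Mir200c and Mir429 share the seed AAUACUG, and Mir200a and Mir141 share AACACUG. The groups differ within the seed by 1 substitution, U4C from miR-200b-3p to miR-141-3p, counted from 1 at the 5′ end. Among 1738 mature strands in the RefSeq table, AAUACUG stood at bases 2 to 8 of 3 strands and AACACUG of 2, all from this family. Each cluster thus carries both seeds. The most alike strands came from different chromosomes: miR-200b-3p and miR-200c-3p were identical at 20 of 22 compared positions, as were miR-200a-3p and miR-141-3p. The other 8 pairs were identical at 17 or 18 positions, whether or not they shared a seed or a cluster. For example, miR-429-3p matched miR-200a-3p and miR-200b-3p at 18 each and miR-200c-3p, which has its seed, at 17.

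The hairpins of Mir429 and Mir200a are shown because they had the highest and the lowest counts of the chromosome 4 cluster. The mature strands are in capitals, the 5p strand first.
Mir429: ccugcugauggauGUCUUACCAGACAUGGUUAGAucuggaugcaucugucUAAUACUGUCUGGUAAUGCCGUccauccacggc
Mir200a: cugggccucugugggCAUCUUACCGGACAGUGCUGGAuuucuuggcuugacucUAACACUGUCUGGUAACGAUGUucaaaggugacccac
The counts are per hairpin gene, so reads of the 5p and 3p strands were not told apart. The 5p strands have other seeds: Mir200a and Mir200b share AUCUUAC there, and the other 3 genes each have a 5p seed that no other strand in the table carries. A hairpin's longest stretch in common with any other miRNA gene was 17 nt, between Mir200a and Mir141, followed by 14 nt between Mir200b and Mir200c. Mir429 shared at most 13 nt, with Mir218-1. Read lengths and mismatch settings, which decide whether such reads can be placed, were not stated in the labels or the deposited notes.

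The genes of a cluster lie close together on the minus strand of mm10 (GRCm38), as annotated in GENCODE M21. Mir200b (ENSMUSG00000065549.2, chr4:156055681-156055750) is first in the direction of transcription, with Mir200a (ENSMUSG00000065400.1, chr4:156054896-156054985) 695 nt and then Mir429 (ENSMUSG00000065427.1, chr4:156053905-156053987) another 908 nt downstream. All 3 are intronic to the protein-coding gene Ttll10. They also lie within the noncoding transcript Gm13648, where Mir429 overlaps an exon and the other 2 are intronic. On chromosome 6, Mir200c (ENSMUSG00000065462.2, chr6:124718322-124718390) is 336 nt upstream of Mir141 (ENSMUSG00000065474.1, chr6:124717914-124717985), and both are in an intron of the noncoding gene Gm15884. Mir141 also overlaps an exon of Gm29008. The clusters span 1846 and 477 nt.

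The family was well expressed and its genes lay on 3 separate levels. It held 2.48% of own-strand reads in replicate 1 (95% exact binomial interval 2.47 to 2.49) and 2.13% in replicate 2 (2.12 to 2.14), a mean of 2.31% ± 0.248 (SD, n = 2). Mir429 stood at the top, Mir200c and Mir200b lay together in the middle, and Mir200a and Mir141 were lowest. Every family gene was among the 109 most abundant miRNA genes of each library, and the family's own-strand counts ranged between 2743 and 111639, so counting error was small throughout. Intervals are binomial on read counts, so they cover counting error only and leave out spread between pools and library preparations. PCR copies of a molecule were not told apart, so the counting error of molecules can be larger. On the opposite strand, the files list 0 reads for each family gene but for 1 read at Mir141 in replicate 2.

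Mir429, one of the AAUACUG genes, had 111639 reads in replicate 1 and 74695 in replicate 2. These counts come to 15017 and 12739 CPM, a mean of 13878 ± 1610.5 CPM (SD, n = 2) and rank 18 among all genes. It was above each of its relatives by a wide margin in both libraries.

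Mir200c, which has the same seed, had 29294 and 23980 reads, or 3940.45 and 4089.85 CPM, at a mean of 4015 ± 106 CPM and rank 36. Mir200b, the third gene with this seed, had 33601 and 19632 reads, or 4519.8 and 3348 CPM, at a mean of 3934 ± 828 CPM (SD, n = 2 each) and rank 39. The order of these neighbours changed between pools: Mir200b was 1.15 times Mir200c in replicate 1 (95% exact binomial interval 1.13 to 1.17) and 0.819 times in replicate 2 (0.803 to 0.834). Their means differ by less than the spread of Mir200b between libraries.

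Mir200a, with the AACACUG seed, had 5760 and 3954 reads, or 775 and 674 CPM, at a mean of 725 ± 71.0 CPM and rank 93. Mir141, which shares that seed, had 4228 and 2743 reads, or 569 and 468 CPM, at a mean of 518 ± 71.3 CPM (SD, n = 2 each) and rank 102. Mir200a was 1.36 times Mir141 in replicate 1 (1.31 to 1.42) and 1.44 times in replicate 2 (1.37 to 1.51), so their order held in both pools. No test over libraries was made, since each gene has only 2 values, paired with those of other genes by library. Even with the pairing ignored, 2 values against 2 allow no two-sided exact permutation p below 0.333. Levels are per gene and were not divided by length, since the mature strands are nearly equally long, at 21 to 23 nt. No correction for how well each miRNA enters a library is recorded in the sources used here.

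**Figure D1:**
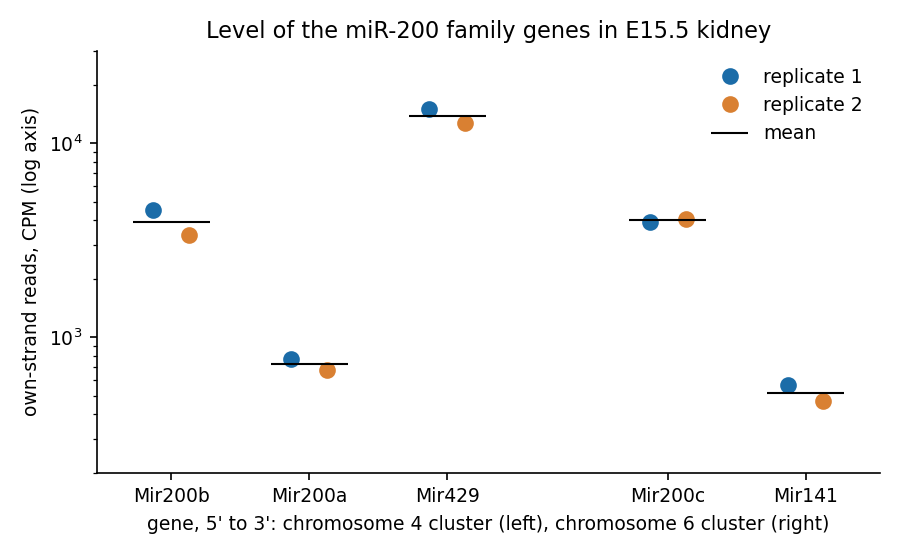
Own-strand level of each family gene in CPM (log axis), with 1 point per library and a line at the mean; genes are in order of transcription within the chromosome 4 cluster (left) and the chromosome 6 cluster (right). Mir429 lies near 13878 CPM, Mir200b and Mir200c between 3348 and 4519.8 CPM with their order crossing between libraries, and Mir200a and Mir141 below 1000 CPM.

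**Figure D2:**
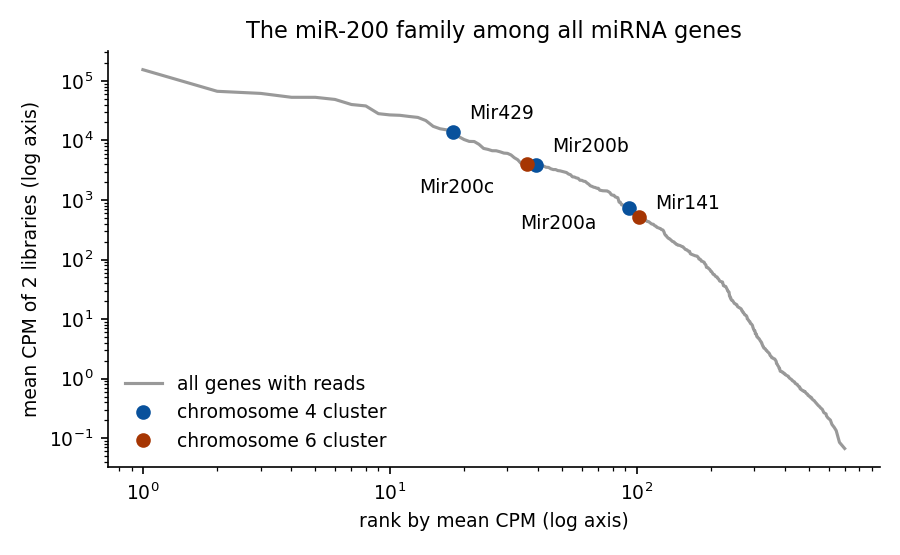
Mean CPM of 2 libraries (log axis) against rank (log axis) for every miRNA gene with reads, with the family genes as points coloured by cluster. Mir429 is at rank 18, Mir200c and Mir200b are at ranks 36 and 39, and Mir200a and Mir141 at ranks 93 and 102.

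Within each cluster, genes that are close neighbours had very different counts. Mir429 exceeded Mir200a by 19.4 times in replicate 1 (95% exact binomial interval 18.9 to 19.9) and 18.9 times in replicate 2 (18.3 to 19.5). Mir200b exceeded Mir200a by 5.83 times (5.67 to 6.0) and 4.97 times (4.80 to 5.14). Mir200c exceeded Mir141 by 6.93 times (6.71 to 7.16) and 8.74 times (8.40 to 9.10). The gene with the AACACUG seed was thus the lowest of its cluster at both loci, in both libraries. Mir429 in turn exceeded Mir200b, with which it shares a cluster and a seed, by 3.32 times (3.28 to 3.36) and 3.80 times (3.75 to 3.87), so the gene last in the direction of transcription was the most abundant of the chromosome 4 cluster. These ratios are taken within a library and do not depend on its scaling.

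The family's make-up by seed was nearly equal in the pools, and its make-up by cluster was less so. Genes with the AAUACUG seed held 94.6% of family reads in each library, with intervals of 94.5% to 94.7% in replicate 1 and 94.5% to 94.8% in replicate 2. The AACACUG genes held the other 5.41% and 5.36%. Their share was unequal between loci: Mir200a made up 3.81% and 4.02% of its cluster's reads, and Mir141 made up 12.6% and 10.3% of its own. The chromosome 4 cluster supplied 81.8% of family reads in replicate 1 (81.7 to 82.0) and 78.6% in replicate 2 (78.4 to 78.8), a mean of 80.2% ± 2.27 (SD, n = 2). Of all own-strand reads, the chromosome 4 cluster took 2.03% and 1.68%. The chromosome 6 cluster took 0.451% (0.446 to 0.456) and 0.456% (0.450 to 0.461), and these intervals overlap. That overlap holds under library totals, while the TMM and DESeq2 scalings described below add 0.13 and 0.16 to every log2 ratio between the pools. It also covers unlike genes: the log2 ratio of replicate 1 over replicate 2 was -0.054 for Mir200c and 0.28 for Mir141. By gene, Mir429 alone made up 60.5% and 59.8% of the family, Mir200b 18.2% and 15.7%, and Mir200c 15.9% and 19.2%.

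**Figure D3:**
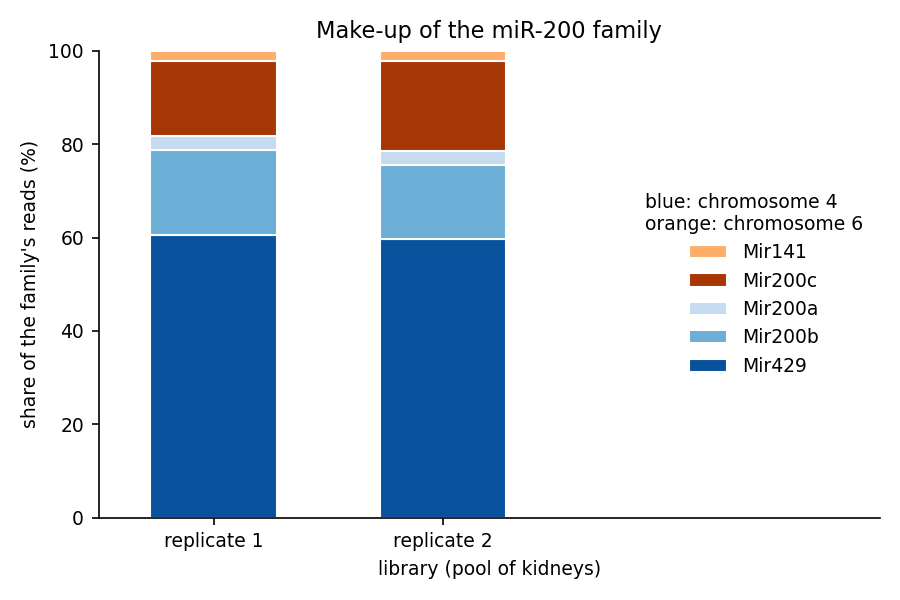
Share of the family's own-strand reads (%) taken by each gene in each library, with genes of the chromosome 4 cluster in blue and of the chromosome 6 cluster in orange. Mir429 makes up about 60% of both bars, and the boundary between the clusters lies at 81.8% in replicate 1 and 78.6% in replicate 2.

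Between the pools the family's median gene had a log2 ratio of replicate 1 over replicate 2 of 0.24. The median of the 264 genes averaging 100 or more counts, which include all 5 family genes, was -0.13, with quartiles of -0.37 and 0.094. Mir200b had the highest ratio of the family at 0.43 (95% exact binomial interval 0.41 to 0.46). Mir141 followed at 0.28 (0.21 to 0.35), Mir429 at 0.24 (0.22 to 0.25) and Mir200a at 0.20 (0.14 to 0.26). Mir200c was at -0.054 (-0.078 to -0.029), a sign that turned to 0.074 with TMM scaling and 0.11 with DESeq2 size factors. The 5 genes lay above the median of all genes, by 0.076 for Mir200c and by 0.33 to 0.56 for the others. These distances do not depend on the scaling, but they depend on the count minimum. Among genes averaging at least 1000 counts the median was -0.074, closer to Mir200c.

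Past 1.2-fold higher in replicate 1 were 2 of 5 family genes, Mir200b and Mir141, and 9.09% of all 264 genes. Past 1.2-fold lower were 0 of 5 family genes and 36.0% of all genes. The lopsided background rests on the scaling. TMM added 0.13 to every log2 ratio, after which 4 of 5 family genes and 19.7% of all genes were past 1.2-fold higher, and 0 of 5 and 24.6% lower. DESeq2 size factors added 0.16, after which 4 of 5 and 24.2% were past it higher, and 0 of 5 and 23.1% lower. Mir429, at 1.18-fold, and Mir141, at 1.22-fold, lie just outside and just inside the threshold. Genes of 1 cluster are known to be made from a shared transcript, so the 5 genes are not independent of each other. A ratio between 2 libraries compares those pools and no condition, and in whole kidneys fewer cells of a type and less RNA per cell cannot be told apart.

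**Figure D4:**
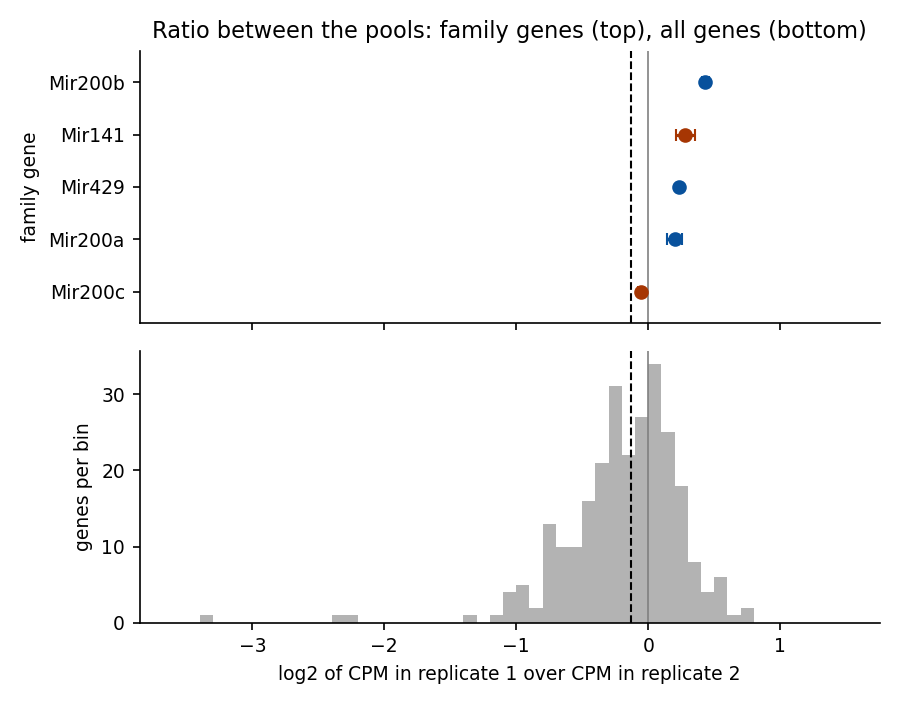
Log2 of CPM in replicate 1 over CPM in replicate 2 for the family genes (top; bars are 95% exact binomial intervals, blue is the chromosome 4 cluster and dark orange the chromosome 6 cluster) and for the 264 genes averaging 100 or more counts (bottom; bins of 0.1). The dashed line is the median of all genes at -0.13 and the grey line is 0; the family genes lie to the right of the dashed line, with Mir200b farthest at 0.43, and Mir200c is left of 0 under library totals but not under TMM or DESeq2 size factors.

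Other miRNA genes known from epithelium or from other kidney compartments did not all move as the family did. The family took 2.48% of reads in replicate 1 and 2.13% in replicate 2, against 0.985% and 1.01% for 9 other epithelial genes. That list is led by Mir182 at 2448 ± 306 CPM and Mir183 at 2348 ± 29.4 CPM, neighbours known from sensory epithelium. Its median log2 ratio was 0.12, with 2 of 9 genes past 1.2-fold higher in replicate 1 and 1 past it lower under library totals, against 9.09% and 36.0% of all genes. The higher ones were Mir203, a miRNA of stratified epithelium at 0.42, and Mir34b, known from multiciliated cells, at 0.32 from 155 and 98 reads, with an interval of -0.055 to 0.70 that includes 0; the lower one was Mir375, an endocrine miRNA, at -0.43. These 3 were named after their values were seen.

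The list of nephron and tubule genes ran the other way in sum, with 2.81% in replicate 1 and 3.90% in replicate 2. It was led by Mir30e at 17235 ± 3754 CPM and Mir30a at 11649 ± 3142 CPM, whose family is known from nephron epithelium and podocytes. Their log2 ratios of -0.45 and -0.56 contrast with the 0.24 of Mir429, which is of like abundance. Of the 9 genes with enough counts, 3 were past 1.2-fold higher in replicate 1 and 4 lower under library totals, against 9.09% and 36.0% of all genes. The share of lower genes was thus near the background, and the share of higher genes was above it. The higher ones, named after their values were seen, were Mir192 at 0.69, Mir30b at 0.52 and Mir204 at 0.49. Of the 11 genes in the list, 5 share a stretch of 20 nt, on either strand, with another miRNA gene, Mir30e among them. Their counts can be too low, because reads matching several loci, 27.1% and 26.6% of all reads in the files, are in no gene's count.

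Genes of other cell types were measured beside the family because the pools may differ in make-up. The miR-17-92 genes, needed in nephron progenitors, held 4.47% in replicate 1 and 4.46% in replicate 2, led by Mir17 at 28125 ± 62.0 CPM and Mir20a at 9575 ± 568 CPM. Stroma and mesenchyme genes held 3.18% and 3.62%, led by Mir143, a smooth muscle miRNA, at 26816 ± 3111 CPM and Mir214 at 4129 ± 523 CPM. Mir126a, the endothelial marker, held 4.97% and 4.78%. Mir126b, also in the endothelial list, was not found by name among the measured genes. Blood genes held 0.0959% and 0.117%, led by Mir223, a myeloid miRNA, at 393 ± 0.364 CPM and Mir451a, an erythroid miRNA, at 313 ± 82.6 CPM (SD, n = 2 each). The median log2 ratios of these lists were 0.058 for miR-17-92 (6 genes with enough counts), -0.15 for stroma and mesenchyme (6 genes), 0.056 for Mir126a and -0.30 for blood (4 genes). The family's median of 0.24 was above each of them. Under library totals, with 9.09% of all genes past 1.2-fold higher in replicate 1 and 36.0% lower, the higher ones were Mir19a of miR-17-92 and Mir140, a cartilage miRNA in the stroma list, and the lower ones were Mir199a-2 of the stroma list and Mir451a and Mir155 of the blood list, which were named here after their values were seen. A stretch of 20 nt is shared, on either strand, with another miRNA gene by 2 of 6 miR-17-92 genes, 3 of 7 stroma genes, 1 of 5 blood genes and Mir126a. It is shared by 0 of 9 other epithelial genes. Counts can be too low where the other gene lies at another locus. A gene on the opposite strand of the same locus does not make a read match several loci, and these cases were not told apart. No measured gene of these lists was at 0 in either library, and the part of any cell type in the family's ratio was not tested.

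**Figure D5:**
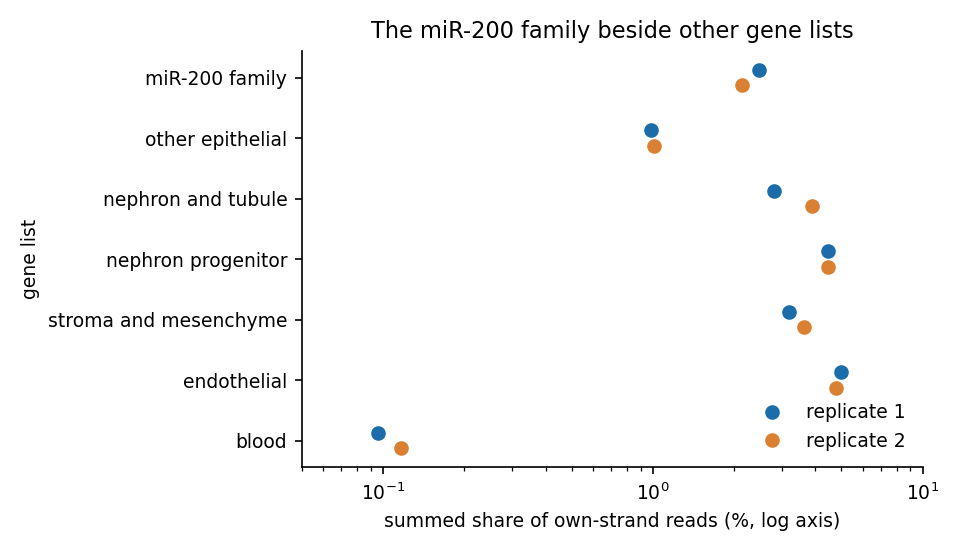
Summed share of own-strand reads (%, log axis) of the family and of 6 other gene lists, with 1 point per library. The family is at 2.48% in replicate 1 and 2.13% in replicate 2, while the nephron and tubule list is at 2.81% and 3.90% and the other epithelial list at 0.985% and 1.01%.

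The genes nearest to each member in level were found by distance in log2 CPM over the 2 libraries. Nearest to Mir429 were Mir99b and Mirlet7d, at distances of 0.296 and 0.451. Nearest to Mir200b were Mir181c (0.0655) and Mir296 (0.195), and nearest to Mir200c were Mir615 (0.137) and Mir214 (0.153). Nearest to Mir200a were Mir674 (0.0346) and Mir542 (0.0642), and nearest to Mir141 were Mir199b (0.114) and Mir25 (0.203). A distance over 2 libraries describes their likeness in level and in pool ratio only.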

How the data were processed

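The deposited files are the authors' raw counts of reads for every miRNA gene, 1 file per library, in 3 unnamed columns. These were read as the sum over strands, the own strand and the other strand, which the deposited notes do not state; the first equals the sum of the others in every gene, and the second held 7434182 and 5863293 reads against 164495 and 139702 in the third. The assembly was mm10 and the annotation GENCODE M4, per the deposited notes. The aligner and the counter were not given in the sources used here. Own-strand counts were used, divided by their sum over miRNA genes. Unmapped reads (17.7% and 19.7%), reads matching several loci and reads outside genes (2.57% and 4.05%) were left out.

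Names and places came from GENCODE M21 by gene identifier without its version, which matched 1894 of 1973 genes; the 79 others held 5 reads. The members and gene lists were chosen with earlier results of these data known. Named genes are the members, the 2 genes nearest to each in level, and the 2 highest of each list. Genes of the lists past 1.2-fold, and Mir218-1, fall outside this rule and were named after their values were seen. Each mean and SD is of 2 libraries, and each interval is a 95% exact binomial one (Clopper-Pearson). With 1 group no contrast was fitted. The ratio step was tested on simulated data with counting error only, in which 200 genes were changed 1.5-fold. The intervals covered the true ratio in 95.5% of 264 genes. The intervals assume the same error, so this checks the calculation and says nothing of spread between pools. edgeR 4.0.16 gave TMM factors and DESeq2 1.42.0 size factors (R 4.3.3); other steps used Python 3.11.15, scipy 1.17.1, pandas 2.3.3, numpy 2.4.6 and matplotlib 3.10.9. Alternatives tried were other totals, scalings, count minimums, a pseudocount, both strands summed and each replicate left out.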

Additional observations from a re-analysis of the deposited data

How the results depend on the processing

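The family's mean share of 2.31% depends on what it is a share of: it was 2.73% without the most abundant gene in the total and 1.16% of every read in the files. Its median log2 ratio of replicate 1 over replicate 2, 0.24 under library totals, was 0.28 without the most abundant gene, 0.33 with every read as the total, 0.37 with TMM and 0.40 with DESeq2 size factors. The log2 ratio of Mir200c, -0.054 under library totals, turned to 0.074 with TMM and 0.11 with DESeq2 size factors; these scalings add a constant to every ratio. With both strands summed, the family share, the shares by cluster and by seed and the family's median ratio moved by less than their spread or interval, as did the median ratio with a pseudocount of 1 CPM. With each replicate left out the family share ranged from 2.13% to 2.48%, the chromosome 4 share of the family from 78.6% to 81.8% and the AAUACUG share from 94.59% to 94.64%; a pool ratio then cannot be had. The share of all genes past 1.2-fold higher in replicate 1 ranged from 9.09% to 20.9% over the count minimums, and was highest with no minimum but a read in each library. The share past 1.2-fold lower ranged from 29.5% with a minimum of 1000 to 43.4% with a read in each library. Over the same minimums the median log2 ratio of all genes ranged from -0.16 to -0.074. With 1 group, no contrast between groups was possible, paired or not. The ratios between family genes are paired by library. With 2 pools, the SD itself is poorly known.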

Other observations

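Large gaps in level between neighbours were not particular to the miR-200 clusters. Among pairs of next neighbours on 1 strand within 10000 nt, with a mean count of at least 100 each, the 3 pairs of the family differed in mean CPM by 5.43-fold (Mir200b and Mir200a), 7.75-fold (Mir200c and Mir141) and 19.2-fold (Mir429 and Mir200a). The 92 other pairs differed by a median of 7.26-fold, with a range of 1.09 to 609.7. They include genes that share a stretch of 20 nt with another miRNA gene, 1 of them in the widest pair. Counts of such genes can be too low, whereas the family's hairpins share at most 17 nt, so the gaps are not fully like for like. The log2 ratios between the pools differed within a pair by 0.037 for Mir429 and Mir200a, 0.23 for Mir200b and Mir200a and 0.34 for Mir200c and Mir141, against a median of 0.34 over the other pairs. The other pairs include genes with far fewer reads than the family's, whose ratios carry wider counting error. Mir19b-1, for example, had 127 and 84 reads and an interval of -0.16 to 0.67. These differences are therefore not fully like for like either. The comparison of neighbours was chosen after the levels were seen, and pairs of 1 cluster share genes, so it is given without a test.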
